A study of Columba livia with 16 samples.

Results

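The hindlimb buds of the Indian fantail, a small-muffed breed with feathered feet, were compared with those of the scale-footed racing homer by ChIP-seq for the histone mark H3K27ac. The comparison set the authors' Indian fantail hindlimb list of 22407 peaks against their racing homer hindlimb list of 18812 peaks, so its members are 41219 of the 73059 peaks in the 4 lists of the series. The Indian fantail carries a deletion on scaffold 79, and peaks in that interval (6.719–6.763 Mb) were left out. This removed 0 Indian fantail and 9 racing homer hindlimb peaks. All embryos were at Hamburger-Hamilton stage 25 (HH25), an embryonic stage at which the limb is still a bud, and no group was treated. For each breed, 2 ChIP libraries and 2 input libraries were made from hindlimb buds, and the same number from forelimb buds, 16 libraries in all. How many embryos went into a library is not given in the sources used here, and the breeds are not a single-locus contrast, since they carry different alleles across the genome. The authors combined the replicates into a single list per breed and limb. There is therefore no error between replicates and no test between the breeds for any value below, and the read depth behind the lists is unknown. The intervals beside shares are 95% Wilson intervals and take in no more than counting error, and neighbouring peaks are not independent.

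H3K27ac is an acetylation of histone H3 that marks active enhancers and promoters, and a peak is a stretch where the mark is enriched over the input. Strongly active loci often carry wide stretches of the mark, which a peak caller may report as a single wide peak or as several narrow ones. In limb buds the mark outlines the enhancers of the genes that set limb type. *Pitx1* encodes a homeobox transcription factor of the hindlimb, and *Tbx5* encodes a T-box factor of the forelimb. Whole limb buds were used, so fewer cells with an active element and less of the mark per cell cannot be told apart.

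The Indian fantail hindlimb list held more peaks of its own than the racing homer list. An Indian fantail hindlimb peak was called gained when no racing homer hindlimb peak overlapped it by at least 1 bp. Of the 22407 Indian fantail peaks, 6732 were gained, which is 30.0% (29.4–30.6%). A racing homer peak without an Indian fantail peak over it was called lost, and 2567 of 18812 were lost, which is 13.6% (13.2–14.1%). The same rule in the forelimb lists gave 21.7% of Indian fantail and 24.5% of racing homer peaks, so that the breed with more peaks of its own was the racing homer there. The forelimb lists held 15357 Indian fantail and 16470 racing homer peaks, and shares with forelimb lists of equal size were not computed. The hindlimb lists differ in length, and when both were limited to their 18812 highest-scoring peaks the shares came closer together, at 22.4% of the Indian fantail list and 18.8% of the racing homer list. With equal lengths, the difference between gained and lost counts equals, by arithmetic, the difference between overlapped racing homer and overlapped Indian fantail peaks. In these lists a single Indian fantail peak lay over several racing homer peaks at 819 places, and the reverse held at 228. The equality holds whatever the source of the remaining difference, which was not tested.

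Most breed-only peaks were weak and narrow. The score is the value that the authors' peak caller gave to each peak, and it can be compared only within a list. It starts at 50 in both hindlimb lists, and 169 Indian fantail and 85 racing homer peaks share the value 3100 exactly. Gained peaks had a median score of 73.6, against a median of 136 in the whole Indian fantail list, and lost peaks had a median score of 65.8, against 123 in the whole racing homer list. Their median widths were 1260 bp in gained and 1211 bp in lost peaks. Peaks that overlapped a single peak of the other breed were wider, with a median of 1858 bp for Indian fantail and 1637 bp for racing homer peaks. When each list was divided into 10 equal parts by score, 71.7% of the Indian fantail peaks in the lowest decile were gained, against 41.1% lost among the racing homer peaks of the lowest decile. In the highest decile, 4 of 2241 Indian fantail peaks were gained (0.178%, 0.0694–0.458%) and 13 of 1882 racing homer peaks were lost (0.691%, 0.404–1.18%). Thus the gained share fell with every step of score, whereas the lost share stayed between 0.638% and 0.797% over the highest 3 deciles. Without the long stretches free of peaks in a hindlimb list that are described below, 7 lost peaks were in the highest decile in place of 13, and the lost shares of deciles 8, 9 and 10 were 0.532%, 0.533% and 0.373%.

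**Figure D1:**
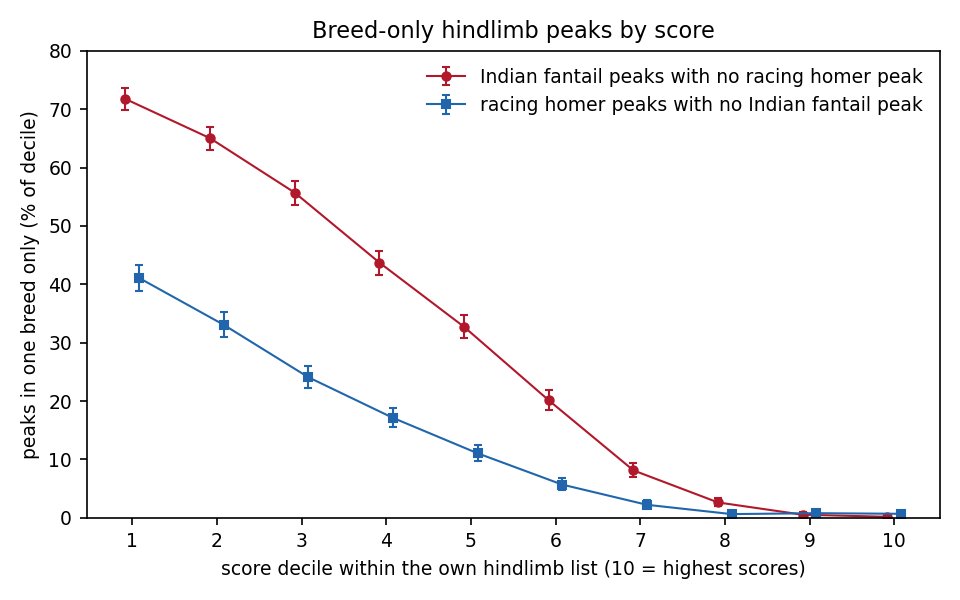
Share of hindlimb peaks with no peak of the other breed over them (vertical axis, percent of the decile) by score decile within the own list (horizontal axis, 10 holds the highest scores), for the Indian fantail (red circles) and the racing homer (blue squares). Bars are 95% Wilson intervals; the Indian fantail share falls to 0.178% in decile 10 from 71.7% in decile 1, and the racing homer share is between 0.638% and 0.797% in deciles 8 to 10.

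Some breed-only peaks lay close to a peak of the other breed, and their distances were not compared with the usual distance between peaks. The median distance to the nearest racing homer hindlimb peak was 7580 bp for gained peaks, and 1308 of them (19.4%) were less than 1 kb away. For lost peaks the median distance to the nearest Indian fantail peak was 8292 bp, and 407 (15.9%) were less than 1 kb away. Of all breed-only peaks, 60 gained and 28 lost peaks lay on scaffolds without any hindlimb peak of the other breed and have no distance. A distance of at least 50 kb was found for 913 gained (13.6%) and 336 lost (13.1%) peaks. When a peak of the other breed within 1 kb was counted as shared, gained peaks made up 24.2% and lost peaks 11.5% of their lists.

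The 8 gained peaks with the highest scores lay between the 83.4 and the 97.9 percentile of the Indian fantail list. The highest was on scaffold 38 from 15678598 to 15694719, 16122 bp wide, with a score of 1820. It lay in a stretch of 20.5 kb without racing homer hindlimb peaks, although each forelimb list had 2 peaks over it, and the highest scored 2217 in the Indian fantail and 2244 in racing homer forelimbs. The next was the peak near *Tbx5* on scaffold 70 from 727306 to 735823, with a score of 1381. A peak with a score of 3100 lay over it in each forelimb list. The racing homer hindlimb list was free of peaks for 300.2 kb around it, and the nearest racing homer hindlimb peak was 40883 bp away. Thus the *Tbx5* peak stood in a long stretch without racing homer peaks, whereas the scaffold 38 peak was 1942 bp from one. The third, on scaffold 872 from 8849 to 21007, had a score of 1093 and also lay over peaks of both forelimb lists.

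The other five of the 8 were weaker. The peaks on scaffold 36 from 750164 to 753741 and on scaffold 171 from 2244066 to 2246076 had scores of 691 and 448 and lay over an Indian fantail forelimb peak but no racing homer forelimb peak. The same held for the peak on scaffold 80 from 2680901 to 2683762, with a score of 433, which was 176888 bp from the nearest racing homer hindlimb peak. These 3 places had an Indian fantail peak in both limbs and no racing homer peak in either. The peak on scaffold 454 from 1321767 to 1324010, with a score of 564, was 10 bp from a racing homer peak, and the peak on scaffold 538 from 802690 to 810125, with a score of 487, was 257 bp from one. At both of these the neighbouring racing homer peak lay just beside the gained one, and both lay over peaks of the 2 forelimb lists. The authors' own differential regions, described below by position only, lay over 3 of the 8: those on scaffolds 38, 70 and 80. Among all 6732 gained peaks, 12 (0.178%) lay over a region higher in the Indian fantail.

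The 8 lost peaks with the highest scores were stronger within their list, between the 95.5 and the 98.5 percentile. The first was on scaffold 218 from 678492 to 687332, with a score of 1841, and the second on scaffold 693 from 3492150 to 3499215, with a score of 1493. The third lay on scaffold 335 from 314962 to 320292 with a score of 1395, and the fourth on scaffold 34 from 7275628 to 7283990 with a score of 1309. All 4 lay over a peak of both forelimb lists, where the scores of the forelimb peaks were between 899 and 1498. The remaining peaks lay on scaffold 893 from 659365 to 664354, scaffold 100 from 4448542 to 4454263, scaffold 538 from 654383 to 658976 and scaffold 7 from 10927808 to 10931593, with scores of 1089, 1019, 1012 and 958. Of the 8, 7 lay over peaks of both forelimb lists, and so did 933 of the 941 racing homer hindlimb peaks with the highest scores (99.1%, the top 5% of the list). The exception was the peak on scaffold 538, which lay over a racing homer forelimb peak only. None of the 8 lay over a deposited differential region of either direction. Such cover was rare, since 3 of all 2567 lost peaks (0.117%) lay over a region higher in the racing homer.

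Each of these 8 lost peaks lay in a stretch of 21.0 to 57.3 kb in which the Indian fantail hindlimb list had no peak at all. Any lost peak lies in such a stretch, and these lengths were not compared with the usual distance between peaks. To describe such places, stretches of at least 10 kb were listed that were free of peaks in a given list and covered to at least 50% by peaks of each of the other 3 lists, a rule chosen after the peaks had been seen. The Indian fantail hindlimb list had 6 of them, with lengths from 21.0 to 29.6 kb, and the racing homer hindlimb list had 1, of 20.5 kb, around the gained peak of scaffold 38. The Indian fantail forelimb list had 1 and the racing homer forelimb list had 2. The 6 Indian fantail stretches lay on scaffolds 34, 218, 100, 190, 335 and 893, and racing homer hindlimb peaks covered between 73.1% and 98.2% of them. Of the 8 lost peaks above, those on scaffolds 693, 538 and 7 lay in none of the 6. Shorter stretches of 2 to 10 kb of the same kind were fewest in the Indian fantail hindlimb list, with 5, the longest of 3.43 kb, against 21 in the racing homer hindlimb list. Between 3.43 and 21.0 kb the Indian fantail hindlimb list therefore had no stretch of this kind. None of the 6 long stretches held a region that the authors called differential between the hindlimbs, in either direction. Outside the deleted interval there were 30 regions higher in the Indian fantail and 21 higher in the racing homer. At these places the lists alone show that a peak was not listed, which is not a measurement of less acetylation.

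**Figure D2:**
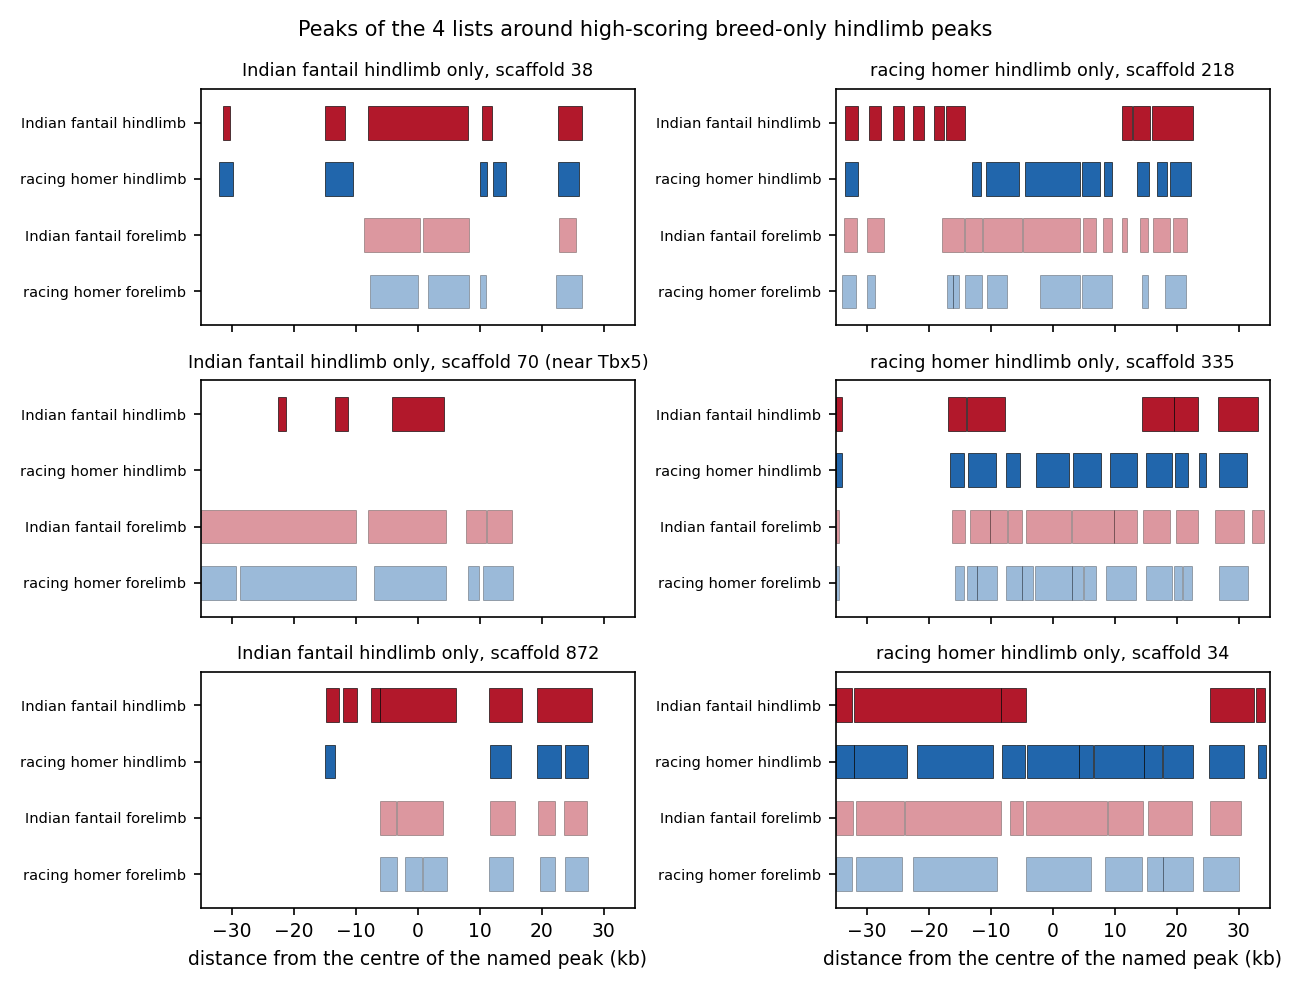
Peaks of the 4 lists (bars, one row per list, hindlimb rows in full colour and forelimb rows pale; red for the Indian fantail, blue for the racing homer) against the distance in kb from the centre of 6 high-scoring breed-only hindlimb peaks. On the left are the 3 gained peaks with the highest scores and on the right the lost peaks of scaffolds 218, 335 and 34, where the Indian fantail hindlimb row is empty for 25.4, 22.0 and 29.6 kb while the other 3 rows have peaks over most of the stretch.

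The forelimb lists showed whether a breed-only hindlimb peak was a place marked elsewhere in the embryo. Of the gained peaks, 4428 of 6732 (65.8%) had no peak in either forelimb list, and of the lost peaks 1690 of 2567 (65.8%). Among the peaks that overlapped one-to-one, this share was 17.4% of 13751. Gained peaks had an Indian fantail forelimb peak over them at 23.3% (22.3–24.3%) and a racing homer one at 22.4% (21.4–23.4%), and these intervals overlap. Over all Indian fantail hindlimb peaks the shares were 58.1% (57.4–58.7%) and 59.0% (58.4–59.7%), in the reverse order. Of the lost peaks, 20.8% (19.3–22.4%) had an Indian fantail forelimb peak over them and 25.6% (23.9–27.3%) a racing homer one. These intervals of the lost peaks do not overlap, and the same peaks enter both shares. The order was the same over all racing homer hindlimb peaks. Of these, 65.9% (65.2–66.6%) had an Indian fantail and 68.0% (67.3–68.6%) a racing homer forelimb peak over them. Both forelimb lists are shorter than the hindlimb lists, and the Indian fantail forelimb list, with 15357 peaks, is shorter than the racing homer one, with 16470.

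Strong peaks of any kind mostly lay over forelimb peaks, and strong breed-only peaks less often than the rest. Of all peaks in the highest 3 score deciles, 92.3% (91.6–92.9%) of 6723 Indian fantail and 94.8% (94.2–95.4%) of 5644 racing homer hindlimb peaks lay over peaks of both forelimb lists. In the highest 3 score deciles, 37 of 75 gained peaks (49.3%, 38.3–60.4%) and 29 of 40 lost peaks (72.5%, 57.2–83.9%) did. In the lower 7 deciles these shares were 11.0% of 6657 gained and 11.2% of 2527 lost peaks, against 29.8% of all Indian fantail and 41.2% of all racing homer peaks there. There were 17 of the 75 strong gained peaks and 4 of the 40 strong lost peaks that had no forelimb peak at all. Of the strong lost peaks, 15 of 40 were at least 5 kb wide, against 5 of the 75 strong gained peaks. These strong gained and lost peaks are matched for score neither with each other nor with all peaks of the highest 3 deciles. Decile 8 held 59 of the 75 gained but 12 of the 40 lost peaks, and decile 10 held 4 and 13. In the highest decile, 3 of 4 gained and 9 of 13 lost peaks were at least 5 kb wide. Peaks of both forelimb lists lay over 3 of these 4 gained and 11 of these 13 lost peaks. The stretches free of peaks, which were chosen for their cover in the forelimb lists, held 1 of the 75 and 13 of the 40. Without them, 36 of 74 gained and 16 of 27 lost peaks (59.3%, 40.7–75.5%) lay over both forelimb lists, and 4 gained and 8 lost peaks were at least 5 kb wide.

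**Figure D3:**
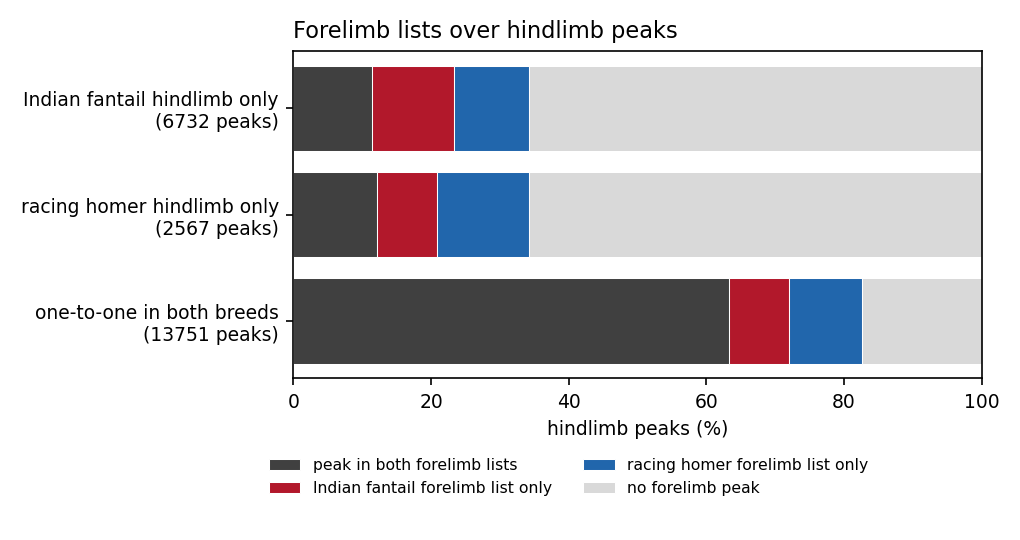
Share of hindlimb peaks (horizontal axis, percent) over a peak of both forelimb lists (dark grey), of the Indian fantail forelimb list only (red), of the racing homer forelimb list only (blue) or of neither (light grey), for gained, lost and one-to-one hindlimb peaks. The gained and lost bars are nearly alike, each with 65.8% of peaks over no forelimb peak, against 17.4% for one-to-one peaks. The classes are not matched for score.

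Besides whole gains and losses, peaks were joined or split between the breeds, and joins outnumbered splits. At 800 places a single Indian fantail peak lay over 2 or more racing homer peaks, which is 3.57% of the Indian fantail list. At 327 places a single racing homer peak lay over 2 or more Indian fantail peaks, which is 1.74% of the racing homer list. The forelimb lists gave 595 joins and 241 splits, so the excess of joins in the Indian fantail was present in both limbs. The gap that a join closed had a median of 187 bp, and at 76 places it was at least 1 kb. The gaps of splits had a median of 70 bp, 195 of the 327 (59.6%) were shorter than 100 bp, and 6 were at least 1 kb long. When peaks of a list at most 500 bp apart were merged beforehand, 586 joins and 103 splits remained. At a further 225 places, several peaks of both breeds overlapped in a chain and were counted as neither.

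The longest gap closed by a join was on scaffold 538, where an Indian fantail peak from 1003798 to 1014778, with a score of 148, spanned 3537 bp between racing homer peaks with scores of 310 and 123. The next, on scaffold 20 from 4304587 to 4319122, spanned 3 racing homer peaks and a gap of 3119 bp. On scaffold 34 a peak of 21265 bp from 7124079 to 7145343 spanned 3 racing homer peaks and a gap of 2998 bp. The others were on scaffold 699 from 1085219 to 1093259, with a gap of 2853 bp, and on scaffold 538 from 862842 to 873243, with a gap of 2594 bp. A single peak bridged the gap in neither forelimb list at 4 of these 5 places, and in the racing homer forelimb list at the place on scaffold 699. A joined peak did not always rank higher than its parts: at 216 of the 800 joins the Indian fantail peak had a lower percentile in its list than the best of the racing homer peaks had in theirs. Of the 5 joins named, this was so at 4. These percentiles come from lists of unequal length. The peak on scaffold 20, for example, was at the 74.0 percentile, against 95.4 for the best racing homer peak under it.

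The split with the longest gap was also on scaffold 538. There a racing homer peak from 710503 to 717476, with a score of 1018, faced Indian fantail peaks with scores of 547 and 669 that were 1406 bp apart. It was the only split of the 5 named whose gap held regions that the authors called higher in the racing homer, 3 in number. The next 4 splits lay on scaffold 1 from 1499558 to 1503885 with a gap of 1168 bp, scaffold 54 from 1301765 to 1304172 with 1161 bp, scaffold 538 from 1067355 to 1072283 with 1127 bp and scaffold 244 from 3060788 to 3066300 with 1118 bp. At these 4 the gaps held 0 such regions. On scaffold 54 the racing homer peak itself had a score of 55.1, close to the lowest in its list.

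Where peaks overlapped one-to-one, they were slightly wider in the Indian fantail hindlimb. Over 13751 such peaks the median log2 ratio of Indian fantail to racing homer width was 0.11 (95% interval of the median 0.10–0.12), which is a ratio of 1.08, and the median difference was 119 bp. The Indian fantail peak was the wider one at 68.1% of them (67.3–68.9%). The forelimb lists gave the same direction with a median of 0.08 (0.07–0.08) and 62.1% of 10549 peaks. The widening was alike at both ends, with a median of 28 bp at each. At 39.8% of the hindlimb places the Indian fantail peak reached past the racing homer peak at both ends, and at 13.3% it lay inside it. A difference of at least 2-fold was rare: 455 peaks (3.31%) were at least 2-fold wider in the Indian fantail and 68 (0.495%) at least 2-fold narrower.

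Width moved together with score. Across the 13751 places, the Spearman correlation of the width ratio with the change in score percentile between the lists was 0.349, given as a description, since neighbouring places come from the same libraries. The places were divided into 4 groups of equal size by that change. In the group that ranked lowest in the Indian fantail list relative to the racing homer list, the median log2 width ratio was 0.0052 and 50.7% were wider in the Indian fantail. In the group that ranked highest, the median was 0.28 and 81.8% were wider. With lists of equal size the median log2 ratio was 0.12.

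**Figure D4:**
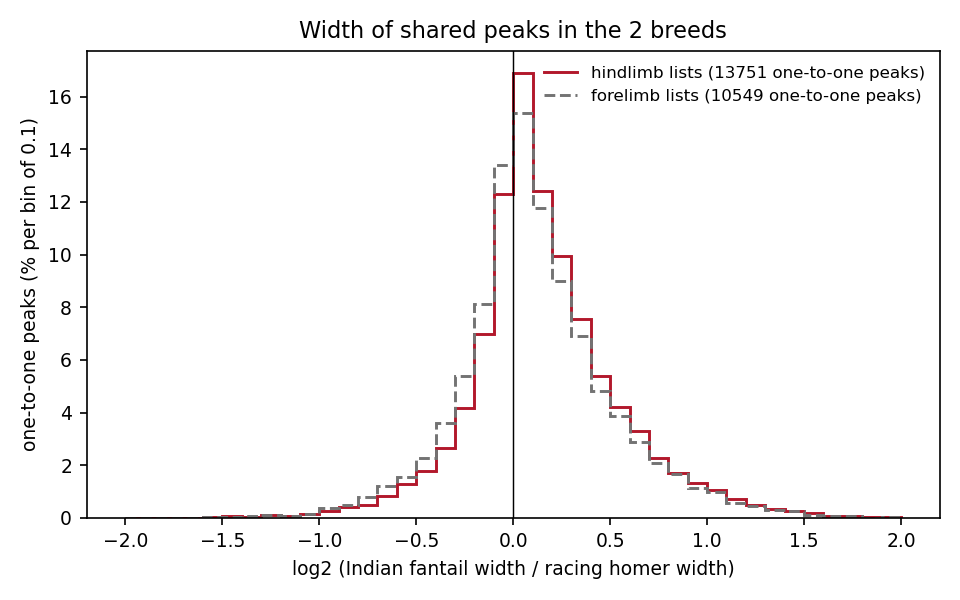
Distribution of the log2 ratio of Indian fantail to racing homer peak width (horizontal axis) over one-to-one peaks, as percent of peaks per bin of 0.1, for the hindlimb lists (red line) and the forelimb lists (grey dashed line). Both distributions lean to the right of 0, with medians of 0.11 in the hindlimb and 0.08 in the forelimb.

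The largest width changes were read only among the 6837 places where both peaks scored at or above the median of their list. The widest relative to the racing homer was a peak on scaffold 864 from 338106 to 342760, 4655 bp in the Indian fantail and 1379 bp in the racing homer, a ratio of 3.38. It was followed by peaks on scaffold 287 from 700795 to 706461 with a ratio of 3.19, scaffold 64 from 1118992 to 1122437 with 3.11, scaffold 232 from 12008325 to 12013156 with 2.93 and scaffold 835 from 647640 to 652355 with 2.84. All 5 ranked higher in the Indian fantail list than in the racing homer list, although on scaffold 835 the percentiles were close, at 78.0 and 76.3. Percentiles come from lists of unequal length. Over all one-to-one peaks, the third of the 4 groups by change in percentile began at a rise of 4.11, more than the rise on scaffold 835. In the other direction, a peak on scaffold 232 from 11214882 to 11215571 was 690 bp wide in the Indian fantail and 1902 bp wide in the racing homer, a ratio of 0.363. The peak on scaffold 626 from 478377 to 479959 had a ratio of 0.377, and the 3 that followed, on scaffolds 173, 142 and 2338, had ratios from 0.453 to 0.469. These 5 all ranked lower in the Indian fantail list. No region that the authors called differential lay at any of the 10 places. Such regions were rare at all 13751 one-to-one peaks, with 12 under a region higher in the Indian fantail and 11 under one higher in the racing homer.

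In bases, 32.8 Mb were under peaks of both hindlimb lists, 15.7 Mb under Indian fantail peaks only and 5.66 Mb under racing homer peaks only. The breed-only part was 32.3% of the Indian fantail list and 14.7% of the racing homer list. Breed-only peaks made up 58.6% of the Indian fantail-only bases and 59.8% of the racing homer-only bases, and the rest, 41.4% and 40.2%, lay beside shared bases at the edges or in the gaps of overlapping peaks. Thus a large part of the difference in covered sequence lay at places that both breeds had a peak on.

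Breed-only peaks followed each other along the scaffolds more often in the Indian fantail. After the hindlimb lists were merged into 24402 places, 27.6% of the places had an Indian fantail peak only and 10.5% a racing homer peak only. A run was defined as 3 or more consecutive places of the same breed only, with neighbours at most 50 kb apart. There were 278 Indian fantail runs holding 935 peaks and 31 racing homer runs holding 100 peaks. The number of runs rises with the share of breed-only places, so it is not a separate result. Clustering beyond that share was not tested. In the forelimb lists there were 58 Indian fantail and 85 racing homer runs. With hindlimb lists of equal size there were 82 Indian fantail and 60 racing homer runs.

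The run with the most peaks was on scaffold 249 from 464079 to 488274, with 7 Indian fantail peaks over 24.2 kb whose scores were between 51.2 and 129. No peak of either forelimb list lay over any of the 7. Runs of 6 peaks lay on scaffold 101 from 3199465 to 3247522 and on scaffold 217 from 83920 to 130510, with highest scores of 68.7 and 134. The next 2, of 5 peaks each, lay on scaffold 218 from 653235 to 668691 and on scaffold 698 from 3134074 to 3176023. In these 4 runs, between 1 and 3 of the peaks lay over an Indian fantail forelimb peak. The peaks in Indian fantail runs had a median score of 72.7, against 73.6 in all gained peaks. Those in racing homer runs had a median of 71.5, against 65.8 in all lost peaks. Weak peaks were thus the rule in the runs of both breeds and among breed-only peaks as a whole. The highest 3 score deciles held 75 of the 6732 gained and 40 of the 2567 lost peaks. Of the 278 Indian fantail runs, 16 (5.76%) held a peak of these deciles. Of the racing homer runs, 8 of 31 (25.8%) did, and 4 of 26 (15.4%) without the stretches free of peaks in a hindlimb list.

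The racing homer runs included stronger stretches. The first, on scaffold 34 from 7275628 to 7302507, held 5 peaks with scores from 140 to 1309, and the second, on scaffold 218 from 669949 to 692470, held 5 with scores from 57.9 to 1841. The third, on scaffold 335 from 310021 to 331185, held 4 with scores from 265 to 1395. Every peak of these 3 runs lay over a peak of both forelimb lists. All 3 fall in the stretches free of Indian fantail hindlimb peaks described above, which were chosen for their cover in the forelimb lists. On scaffold 218 the racing homer run began 1257 bp after the end of an Indian fantail run of 5 peaks, so that over 39.2 kb the peaks of the breeds lay side by side and not over each other. The last 2 runs, on scaffold 102 from 10572178 to 10593249 and on scaffold 636 from 745477 to 759078, held 4 peaks each with scores of at most 105 and 71.0. Without the stretches free of peaks in a hindlimb list, there were 278 Indian fantail and 26 racing homer runs.

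**Figure D5:**
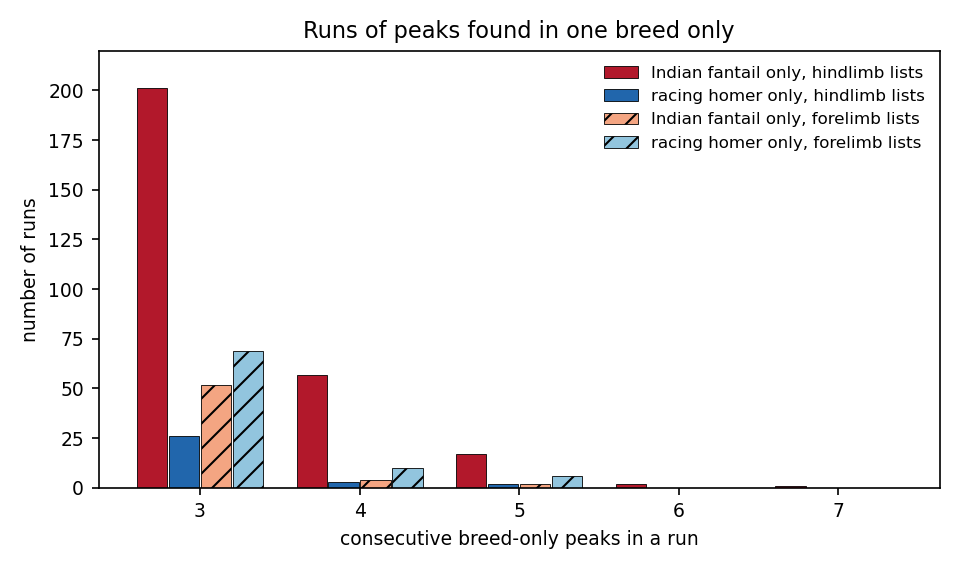
Number of runs (vertical axis) by the number of consecutive breed-only peaks in the run (horizontal axis) for Indian fantail-only and racing homer-only peaks of the hindlimb lists (solid bars) and of the forelimb lists (hatched bars). In the hindlimb lists the Indian fantail has 201 runs of 3 peaks and the racing homer 26, and in the forelimb lists the counts are 52 and 69.

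The gains and losses were spread over the assembly. On each of the 106 scaffolds with at least 50 peaks in both hindlimb lists, the gained share was higher than the lost share. The scaffolds are not separate support for this order, since the Indian fantail list was the longer one as a whole. Joins also count several racing homer peaks as overlapped by a single Indian fantail peak. The gained share was between 12.3% and 41.0% with a median of 29.8%, and the lost share between 1.96% and 28.3% with a median of 12.8%. The highest gained share was on scaffold 153, where 32 of 78 Indian fantail peaks were gained (41.0%, 30.8–52.1%). The highest lost share was on scaffold 309, where 17 of 60 racing homer peaks were lost (28.3%, 18.5–40.8%). The interval excluded the share of the whole list on 7 scaffolds for gains and on 12 for losses.

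At the loci named by the study, the breeds differed in different ways. Around *Tbx5* (scaffold 70, 0.64–0.76 Mb) all 4 Indian fantail hindlimb peaks were gained. Besides the strong peak, they began at positions 694455, 708962 and 718140, at the 15.1, 4.86 and 59.8 percentile of the list, so a single peak carried the high score. In the adjoining window of 0.76–0.8 Mb, which holds *Tbx3*, a T-box gene expressed in both limb buds, no peak was gained or lost. There 6 peaks overlapped one-to-one with log2 width ratios between -0.04 and 0.07, and an Indian fantail peak from 782402 to 786874 joined 2 racing homer peaks.

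On scaffold 79 from 6.763 to 7 Mb, next to the deleted interval and including *Pitx1* and the histone gene *H2afy*, 4 of 16 Indian fantail peaks were gained and 1 of 15 racing homer peaks was lost. Neither share was above that of the whole list, 30.0% for gained and 13.6% for lost peaks. The gained peaks had scores from 50.3 to 113 and the lost peak, from 6769795 to 6770821, a score of 87.9, so all 5 were below the median of their lists. The Indian fantail joined 3 pairs of racing homer peaks, with joined peaks that began at 6787351, 6851164 and 6881269 and scored 872, 240 and 783. At the end of the window the Indian fantail had peaks of 18768 and 1493 bp where the racing homer had a single peak of 20931 bp, and the widest peak of each breed there scored 3100. A region that the authors called higher in the racing homer lay in the gap between these Indian fantail peaks. The 7 one-to-one peaks had log2 width ratios between -0.59 and 0.36, and 3 of them were wider in the Indian fantail.

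The authors' deposited regions of differential enrichment, taken here by position only, covered few of these changes and few one-to-one peaks. There were 30 regions higher in the Indian fantail, of which 14 lay over a gained peak, 12 over a one-to-one peak, 2 over a joined peak, 1 in a chain of peaks and 1 over no peak. Since several regions can share a peak, 12 of the 6732 gained peaks (0.178%) were covered. Outside the deleted interval there were 21 regions higher in the racing homer, of which 3 lay over a lost peak, 11 over a one-to-one peak, 4 over a split peak, 1 under a join, 1 in a chain and 1 over no peak. The 3 lost peaks are 0.117% of all lost peaks. Coverage was low for shared peaks too. Of the 13751 one-to-one peaks, 12 lay under a region higher in the Indian fantail and 11 under a region higher in the racing homer. The low shares are thus not particular to gained or lost peaks. The one-to-one peaks under regions higher in the Indian fantail had a median log2 width ratio of 0.23, with 9 of 12 wider in the Indian fantail, and those under regions higher in the racing homer had a median of -0.07, with 5 of 11 wider in the Indian fantail. Over all one-to-one peaks the median was 0.11.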

How the data were processed

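H3K27ac ChIP and input libraries of HH25 limb buds were read as single-end 50-bp reads, and the submitters' processing notes name CASAVA, Bowtie2 2.2.3, SAMtools, MACS 1.4.2 and MACS2 2.0.10.20130915 without their roles. The genome build is not given in the sources used here, and scaffolds are numbered as the authors numbered them. The lists deposited by the authors, a single list for each combination of breed and limb, give the start, end and score of every peak. The score resembles the one MACS writes, but its scale is inferred from the values. Depth is unknown and replicates are not kept apart. The authors' regions from function bdgdiff of MACS2, which the methods set at a log10 likelihood ratio no lower than 3, were used by position. The ratios hold the authors' own comparison and were not used.

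Overlap of at least 1 bp defined gained, lost, one-to-one, split and joined peaks. Positions are 1-based. Score percentiles are the share of the own list with a lower score. Peaks named were the 8 gained and 8 lost peaks with the highest scores, the 5 splits and joins with the longest gaps, the 5 largest width changes in each direction, the 5 runs with the most peaks of each breed and the windows the paper names. These members and rules were chosen with earlier results of these data known. Genes are named only at loci that the paper places on these scaffolds. A table of pigeon genes was given for a different assembly, so its names were not used. The alternatives tried were overlap over 50% or more of each peak, peaks at or above the median score, lists of equal size (18812 peaks), merging within 500 bp, a distance of 1 kb counted as shared, scaffolds with at least 20 peaks, runs within 20 kb and runs of 5 or more. Calculations used Python 3.11.15, numpy 2.4.6 and scipy 1.17.1, and figures matplotlib 3.10.9. The steps were tested on simulated lists, where 9 of 9 checks recovered the planted value. The rule for stretches free of peaks was added after the data were seen.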

Additional observations from a re-analysis of the deposited data

Results flagged for a closer look

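The breed with more peaks of its own was not the same in the 2 limbs. In the hindlimb lists the share of breed-only peaks was 16.4 percentage points higher in the Indian fantail than in the racing homer, and in the forelimb lists the difference was -2.83 percentage points. The number of runs of breed-only peaks differed in the same way, with a difference of 247 runs between Indian fantail and racing homer in the hindlimb lists and of -27 runs in the forelimb lists. It rises with the share of breed-only peaks and is not a separate result. Each limb and breed has a single list, so the difference between limbs was not tested. With hindlimb lists of equal size, the differences in the hindlimb were 3.67 percentage points and 22 runs. In those lists the difference in breed-only counts equals, by arithmetic, that between overlapped racing homer and Indian fantail peaks. The source of the difference was not tested. The length of the lists runs in the same order, with 22407 Indian fantail and 18812 racing homer peaks in the hindlimb and 15357 and 16470 in the forelimb. The forelimb lists were not cut to equal size.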

How the results depend on the processing

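No paired analysis was possible because each deposited list combines the replicates, and no replicate was left out of a list. Of 74 values under an alternative, 30 stayed within their interval, or within 1.5 times for a count, and 44 moved. The order of the breeds did not change: the gained share was above the lost share under 7 of 7 alternatives, Indian fantail runs were more numerous under 8 of 8 and joins outnumbered splits under 4 of 4. All alternatives use the same lists, so these counts are not independent support. Many intervals are narrow because the lists are long, and those of covered bases treat each base as independent.

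Gained and lost shares were 36.6% and 24.5% with an overlap of at least 50%, 28.2% and 11.9% for scores at or above the median, where weak peaks of the other breed no longer count, 22.4% and 18.8% for equal lists, 28.9% and 14.2% after merging and 24.2% and 11.5% with a peak within 1 kb counted as shared. Splits fell to 93 and joins to 313 for scores at or above the median, where fewer peaks were used, and splits to 103 after merging. The median log2 width ratio was 0.10 for scores at or above the median, 0.12 for equal lists and 0.13 after merging, and the share wider in the Indian fantail was 67.3% with an overlap of at least 50%, 69.6% for scores at or above the median and 69.4% for equal lists. Breed-only bases of the Indian fantail and the racing homer lists were 32.3% and 13.4% for scores at or above the median, 28.4% and 17.7% for equal lists, 32.2% and 14.5% after merging and 32.1% and 14.6% on scaffolds with at least 20 peaks. Indian fantail and racing homer runs numbered 84 and 4 for scores at or above the median, 82 and 60 for equal lists, 171 and 20 within 20 kb, and 20 and 2 with at least 5 peaks.

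The share of gained peaks over an Indian fantail forelimb peak and of lost peaks over a racing homer forelimb peak was 20.9% and 30.4% with an overlap of at least 50%, 64.5% and 68.7% for scores at or above the median and 28.0% and 28.3% for equal lists, and the first was 24.9% with a peak within 1 kb counted as shared. For scores at or above the median, 9 authors' regions lay over a gained and 5 over a lost peak. A log10 likelihood ratio of at least 4 was not run, since the ratios are the authors' own comparison. Leaving out the stretches free of peaks, chosen after the data were seen, kept the gained and lost shares within their intervals and the run counts within 1.5 times. It lowered the strong lost peaks (highest 3 score deciles) to 27, against 40 with the stretches, and the racing homer runs that held such a peak to 4 of 26, against 8 of 31.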
